A study of Homo sapiens with 6 samples.

Results

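The genes described here are 57 regulators of actin assembly and turnover, taken by gene symbol from the 58219 gene identifiers in the deposited count files. The list was chosen with earlier results of these data known. All 57 were found, and 56 had enough reads to be tested, among 14723 genes tested in all. They were ordered by role into the ARP2/3 complex, its activators, formins, capping proteins, filament severing and its control, monomer binding, bundling with crosslinking and elongation, and ROCK, PAK and CDC42 signalling. The measurements are polyA-selected, strand-specific RNA sequencing of SNU-449 cells, a human cell line established from hepatocellular carcinoma. Stable lines expressing the tyrosine kinase Yes with the gatekeeper substitution T348I (Yes T348I, 3 libraries) were compared with lines expressing wild-type Yes (Yes WT, 3 libraries). Every library came from cells given dasatinib at 100 nM, an inhibitor of SRC family kinases, so the comparison holds only in its presence. The labels do not say how many clones or cultures were behind the 3 libraries of a group. The p-values are therefore set by how far libraries of one group differ, a spread that may be technical.

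Actin filaments grow from a pool of monomers that profilin and thymosins hold, and new filaments start either as branches on the ARP2/3 complex or as unbranched filaments at formins. The ARP2/3 complex is switched on by WASP and WAVE proteins, capping proteins stop growth at the fast-growing end, and cofilin and gelsolin cut filaments so that monomers return to the pool. SRC family kinases such as Yes act on many proteins of cell adhesion and of the actin cytoskeleton, and in carcinoma cells actin turnover drives protrusion and migration.

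Total counts over genes ranged from 14392286 to 19608763 in the Yes T348I libraries and from 14360137 to 16117573 in the Yes WT libraries. The correlation of log2 levels was 0.995 to 0.996 within groups and 0.982 to 0.985 between them, and principal component analysis separated the groups on its leading component (69.4% of the variance). YES1 itself (GRCh38 chromosome 18, 721588 to 812546) had 382, 411 and 435 CPM (counts scaled to a common library size by TMM) in Yes T348I, against 357, 368 and 367 CPM in Yes WT. The groups did not overlap, and the log2 fold change was 0.17 (SE 0.04, adjusted p = 9.94e-05, edgeR quasi-likelihood test). Its counts can hold reads of both the native and the introduced gene, and gene counts do not show the substitution. Of 8 hepatocyte markers, 7 were under 1 CPM in both groups, ALB and HNF4A among them, so the defining genes of the labelled tissue were nearly absent. The hepatocyte list summed to 1.58 to 3.33 CPM in Yes T348I and 3.46 to 4.46 CPM in Yes WT, with none at 0 and TF lower in Yes T348I. Of 5 cholangiocyte markers, KRT7 and SOX9 were higher in Yes T348I and the other 3 were under 1 CPM, and the list summed to 713 to 799 CPM in Yes T348I and 397 to 428 CPM in Yes WT. The 5 leukocyte markers summed to 0.353 to 1.23 CPM in Yes T348I and 2.42 to 2.94 CPM in Yes WT, with CD3E at 0 in every library. The 4 endothelial markers summed to 0.423 to 0.513 CPM in Yes T348I and 1.14 to 1.47 CPM in Yes WT, with TEK at 0. The 6 stellate cell and fibroblast markers summed to 119.5 to 139.6 CPM in Yes T348I and 115 to 127 CPM in Yes WT, with none at 0. COL1A1 made up most of that sum and was higher in Yes T348I (125 ± 9.40 CPM, against 113 ± 5.85 CPM in Yes WT, adjusted p = 0.00415), while ACTA2 was lower (4.47 ± 0.87 CPM, against 6.71 ± 1.05 CPM in Yes WT, adjusted p = 0.00106; edgeR, SD, n = 3 each). The 4 striated muscle markers summed to 0 in Yes T348I and to at most 0.0669 CPM in Yes WT. The part of these lists in the results on actin regulators was not tested. In bulk samples, a change in the share of cells and a change in RNA per cell cannot be told apart.

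More of the actin regulators were higher than lower in Yes T348I, mostly by small steps. Of the 56 tested, 31 were higher (55.4%) and 6 lower (10.7%) at an adjusted p under 0.05 (edgeR quasi-likelihood test, Benjamini-Hochberg over all genes tested), and 19 did not pass. Among all 14723 genes tested, 28.0% were higher and 27.3% lower by the same rule. Of 63 other actin regulators tested, 36.5% were higher and 25.4% lower. Because the members were chosen with earlier results of these data known, their shares are a description and not a test. With a change of more than 1.2-fold required by the test, 11 of the 56 were higher (19.6%) and 3 lower (5.36%), beside 9.47% and 12.5% of all genes. The values of the groups did not overlap for 33 higher (58.9%) and 6 lower (10.7%) members, beside 29.9% and 29.7% of all genes. The median log2 fold change was 0.12 over the 56 and -0.01 over all genes, and the median absolute change was 0.17 over the 56 and 0.23 over all genes. Single changes ran from -0.71 for gelsolin to 0.64 for coronin 1C. Of the 37 members called, 29 passed under every one of 15 alternative settings, and no member changed direction past the threshold.

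**Figure D1:**
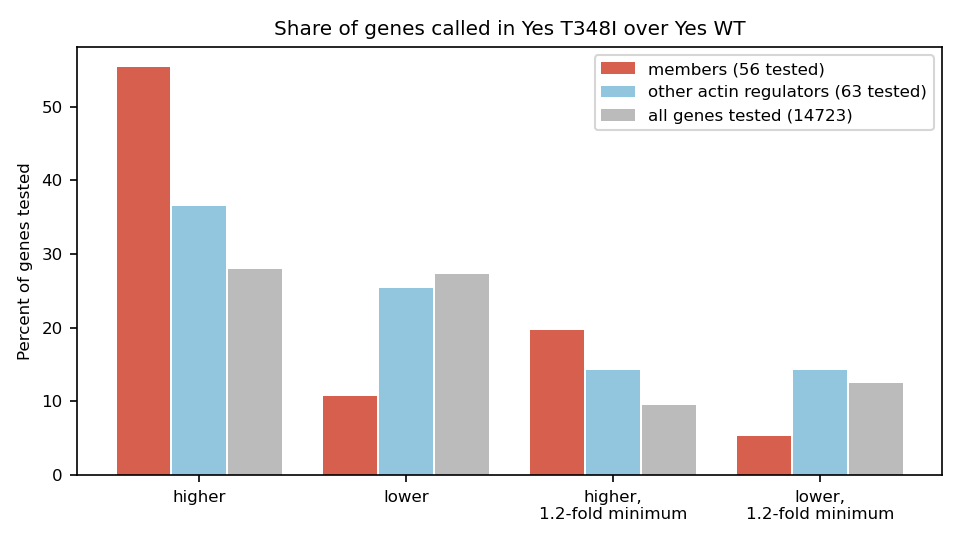
Percent of genes higher or lower in Yes T348I over Yes WT (y axis), by the adjusted p under 0.05 and by the test against a 1.2-fold minimum, for the 56 actin regulators tested, 63 other tested actin regulators and all 14723 genes tested. The bars of the 56 reach 55.4% for higher and 10.7% for lower genes, beside 28.0% and 27.3% of all genes.

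**Figure D2:**
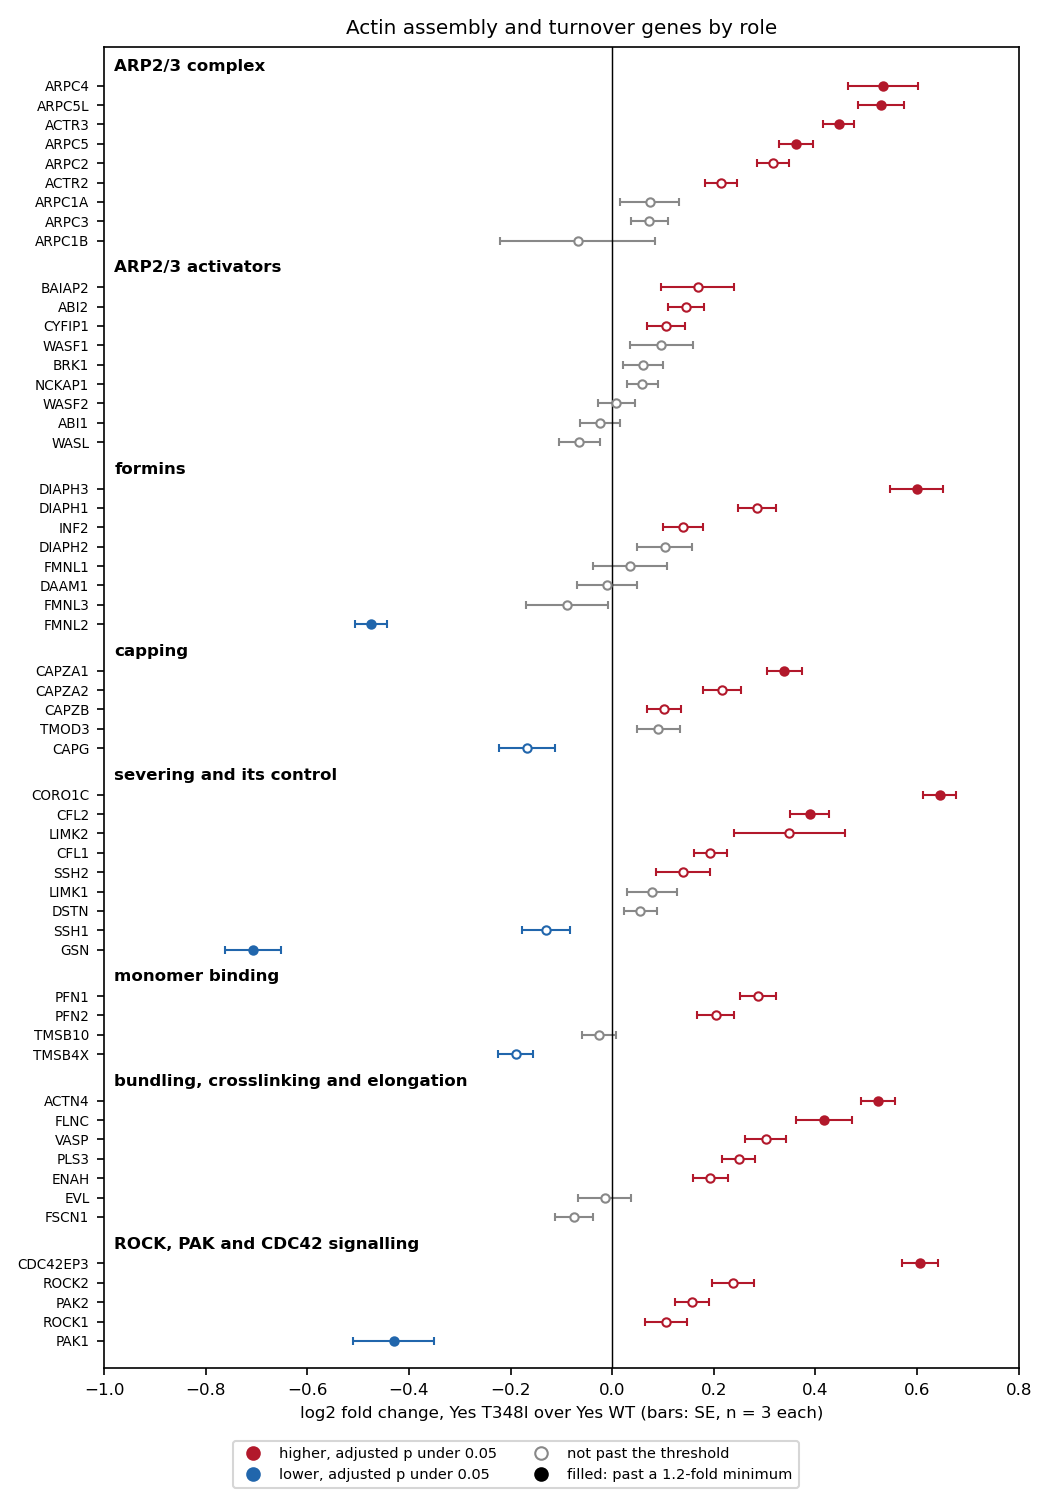
Log2 fold change, Yes T348I over Yes WT (x axis, bars are the SE, n = 3 libraries in each group), of each tested actin regulator by role. Filled points passed the test against a 1.2-fold minimum, among them ARPC4, ARPC5L, ACTR3 and ARPC5 of the ARP2/3 complex, and FMNL2, GSN and PAK1 on the lower side.

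The ARP2/3 complex, which nucleates branched filaments, was the role with the most members past the 1.2-fold minimum, 4 of 9. That is 44.4%, all higher, beside 9.47% of all genes tested. Of its 9 subunit genes, 6 rose in Yes T348I (66.7%, beside 28.0% of all genes), none fell (beside 27.3%), and 3 did not pass. The median log2 fold change of these genes was 0.32. Their levels summed to 1945 ± 12.3 CPM in Yes T348I and 1563 ± 4.38 CPM in Yes WT (SD, n = 3 each), a ratio of 1.24. ACTR3 (chromosome 2, 113889960 to 113962596), one of the actin-related subunits that mimic the first monomers of the new branch, had 479, 479.8 and 478 CPM in Yes T348I, against 347, 355 and 353 CPM in Yes WT. Every Yes T348I library was above every Yes WT library, and within each group the values lay close together. The log2 fold change of ACTR3 was 0.45 (SE 0.03, adjusted p = 6.40e-16). Its partner ACTR2 rose by 0.21 (SE 0.03, adjusted p = 1.99e-07), which did not pass the 1.2-fold minimum.

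The structural subunits of the complex divided into those that rose and those that did not pass. ARPC4 (chromosome 3, 9792495 to 9807726), which with ARPC2 forms the core of the complex, had 40.5, 32.3 and 37.6 CPM in Yes T348I, against 24.0, 27.3 and 25.6 CPM in Yes WT. The groups did not overlap, although the Yes T348I libraries were spread more widely than for the other subunits, and the log2 fold change was 0.53 (SE 0.07, adjusted p = 1.13e-08). ARPC5L (chromosome 9, 124862130 to 124877733), the alternative form of the ARPC5 subunit, had 77.8, 77.6 and 80.7 CPM in Yes T348I, against 54.3, 52.5 and 56.6 CPM in Yes WT. The groups were far apart, and the log2 fold change was 0.53 (SE 0.05, adjusted p = 3.21e-13). ARPC5 rose by 0.36 (SE 0.03, adjusted p = 2.83e-12), passing the 1.2-fold minimum in 11 of the 13 alternatives that test it but not without Yes WT replicate 1 (adjusted p = 0.0556 against that minimum). ARPC2 rose by 0.32 (SE 0.03, adjusted p = 2.80e-11). It passed that minimum only when Yes T348I replicate 1 was left out (0.0166), without the low-count filter (0.0225) or with unstranded counts (0.0415). Per kilobase of exon, ARPC5L made up 45.4% ± 0.54 of the ARPC5 pair in Yes T348I and 42.5% ± 1.23 in Yes WT (SD, n = 3 each). ARPC3 and ARPC1A each had a log2 fold change of 0.07 and did not pass (adjusted p = 0.0804 and 0.292), although ARPC3 did without Yes T348I replicate 2 (adjusted p = 0.0392). ARPC1B, the other form of the ARPC1 subunit, was the lowest of the complex at 3.97 ± 0.30 CPM in Yes T348I and 4.14 ± 0.36 CPM in Yes WT, and did not pass either (adjusted p = 0.731). ARPC1A and ARPC1B share 58.4% and 32.4% of their exon bases with a read-through gene on the same strand, AC004922.1, and reads that fit both genes were counted to neither. That gene held 0 to 4 counts per library. ARPC4 shares 15.0% of its exon bases with ARPC4-TTLL3, which had 0 counts in every library. Since shared reads enter neither gene, these low counts do not show how many reads of the members were left out. The levels of ARPC1A, ARPC1B and ARPC4 may therefore be understated.

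The activators of the ARP2/3 complex moved little: 3 of 9 tested rose (33.3%, beside 28.0% of all genes) and none fell (beside 27.3%). None passed the 1.2-fold minimum, and the median log2 fold change was 0.06. Their levels summed to 1275 ± 8.29 CPM in Yes T348I and 1229 ± 20.0 CPM in Yes WT (SD, n = 3 each), a ratio of 1.04. ABI2 (chromosome 2, 203328219 to 203447723), an ABL-interactor subunit of the WAVE regulatory complex, had 143, 144 and 142 CPM in Yes T348I, against 132, 129 and 127 CPM in Yes WT. The groups did not overlap, and the log2 fold change was 0.15 (SE 0.04, adjusted p = 7.35e-04). CYFIP1 (chromosome 15, 22867052 to 22981063), the WAVE complex subunit that binds active RAC1, had 129, 126 and 129.9 CPM in Yes T348I, against 115, 121 and 121 CPM in Yes WT. Its lowest Yes T348I value lay just above its highest Yes WT value, with a log2 change of 0.11 (SE 0.04, adjusted p = 0.0161), and it passed in 11 of the 15 alternatives. The call was lost without Yes T348I replicate 3 (adjusted p = 0.0548) and without Yes WT replicate 1 (0.121). BAIAP2, an I-BAR protein that links RAC1 to the WAVE complex, overlapped between groups and passed narrowly (log2 fold change 0.17, SE 0.07, adjusted p = 0.0453), in 6 of the 15. Leaving out Yes T348I replicate 1 or 3, or Yes WT replicate 2 or 3, ended that call, with an adjusted p of 0.0865, 0.188, 0.0968 and 0.162 in that order. ABI2 and CYFIP1 overlap genes on the opposite strand over 38.1% and 12.8% of their exon bases, and counts on the opposite strand were 40.5% and 30.04% of their own. Both calls held with the unstranded counts, a separate column that ignores the strand of a read and is not a sum of both strands.

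The remaining activators did not pass. The WAVE subunit genes NCKAP1 and BRK1 had log2 fold changes of 0.06 each, ABI1 of -0.02, the WAVE genes WASF1 of 0.10 and WASF2 of 0.01, and WASL, which encodes N-WASP, of -0.06. WASL passed as lower under upper quartile scaling (adjusted p = 0.0257) and library size scaling (0.035). WASF2, the main WAVE gene of these cells at 76.6% ± 0.79 of the WAVE reads per kilobase in Yes T348I and 77.7% ± 0.14 in Yes WT (SD, n = 3 each), averaged 175 ± 1.54 CPM in Yes T348I and 174 ± 9.43 CPM in Yes WT. WASF3, the third WAVE gene, was not tested, with 0 to 2 counts per library. Among the members, the median change was therefore larger for the branching complex than for the genes that switch it on. The difference between these roles was not tested. In the second list described below, 2 of 16 tested genes around the ARP2/3 complex were lower past the 1.2-fold minimum. The larger of these log2 changes was -0.70.

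Formins, which nucleate and elongate unbranched filaments, moved in both directions: of 8, 3 rose, 1 fell and 4 did not pass. These shares, 37.5% higher and 12.5% lower, stood beside 28.0% and 27.3% of all genes tested. DIAPH3 (chromosome 13, 59665583 to 60163987), a diaphanous formin that acts downstream of small GTPases, had 57.1, 64.4 and 58.5 CPM in Yes T348I, against 39.2, 38.6 and 40.7 CPM in Yes WT. All 3 Yes T348I libraries were higher, and the log2 fold change was 0.60 (SE 0.05, adjusted p = 5.81e-13). FMNL2 (chromosome 2, 152335237 to 152649834), a formin-like protein at the tips of lamellipodia and filopodia, had 366, 379 and 381 CPM in Yes T348I, against 525, 521 and 517 CPM in Yes WT. Here all 3 Yes T348I libraries were lower, and the log2 fold change was -0.47 (SE 0.03, adjusted p = 1.28e-16). FMNL2 was the most highly expressed formin per kilobase of exon, at 57.6 CPM per kilobase in Yes T348I and 79.96 in Yes WT, and the summed formin level was 859.99 ± 13.1 CPM in Yes T348I and 937 ± 17.4 CPM in Yes WT, a ratio of 0.918.

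Among the other formins, DIAPH1, the most abundant diaphanous gene, rose by a log2 change of 0.28 (SE 0.04, adjusted p = 1.25e-08) and INF2, a formin that also severs filaments, by 0.14 (SE 0.04, adjusted p = 0.0028). DIAPH2 did not pass (0.10, adjusted p = 0.101) except without Yes T348I replicate 1 (0.17, adjusted p = 0.00892), nor did FMNL1, FMNL3 and DAAM1, a formin of Wnt planar polarity signalling, whose adjusted p ran from 0.359 to 0.895. Within the diaphanous genes, the share of DIAPH3 per kilobase was 20.2% ± 0.80 in Yes T348I and 16.6% ± 0.60 in Yes WT (SD, n = 3 each). Within the formin-like genes, FMNL2 held 93.4% ± 0.37 in Yes T348I and 95.1% ± 0.17 in Yes WT. FMNL1 and FMNL3 overlap genes on the opposite strand, with counts there of 29.4% and 43.01% of their own.

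The capping genes rose for the capping protein itself and fell for CAPG. CAPZA1 and CAPZA2 encode the alpha subunits, and CAPZB the beta subunit, of the heterodimer that blocks the fast-growing end. CAPZA1 (chromosome 1, 112619173 to 112671619) had 272, 293 and 279.9 CPM in Yes T348I, against 217, 229 and 221 CPM in Yes WT. Its groups were well apart, with a log2 change of 0.34 (SE 0.03, adjusted p = 2.87e-11), and the 1.2-fold minimum was passed in 8 of 13 alternatives. It was not passed without Yes T348I replicate 2 (adjusted p = 0.0918) or without Yes WT replicate 1 (0.0949) or 3 (0.0558). CAPZA2 (chromosome 7, 116811070 to 116922049) had 151, 156 and 162 CPM in Yes T348I, against 131, 133 and 140.2 CPM in Yes WT. Again no value overlapped, and the log2 fold change was 0.22 (SE 0.04, adjusted p = 5.13e-06). CAPZB rose by 0.10 (SE 0.03, adjusted p = 0.00939), which passed in 12 of the 15 alternatives but not without Yes WT replicate 1 (adjusted p = 0.0665). CAPG, a gelsolin-family protein that caps but does not sever filaments, fell by 0.17 (SE 0.06, adjusted p = 0.00998), with means of 39.8 ± 2.56 CPM in Yes T348I and 44.8 ± 2.21 CPM in Yes WT (SD, n = 3 each), and passed in 11 of the 15. Its call was lost without Yes T348I replicate 2 (adjusted p = 0.0837) and without Yes WT replicate 1 (0.0572) or 2 (0.0532). TMOD3, a tropomodulin that caps the slow-growing end, had a log2 fold change of 0.09 and did not pass (adjusted p = 0.0625) except without the low-count filter (0.0372) or without Yes T348I replicate 1 (0.0115).

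Among the genes of severing and its control, the extremes of the whole list stood side by side. Of 9, 5 rose (55.6%), 2 fell (22.2%) and 2 did not pass, beside 28.0% higher and 27.3% lower among all genes. CORO1C (chromosome 12, 108645109 to 108731596), a coronin that acts on ARP2/3 branches and on cofilin-bound filaments, had 429.9, 455 and 449.5 CPM in Yes T348I, against 282, 284 and 287 CPM in Yes WT. Every Yes T348I value was far above the Yes WT values, at a log2 change of 0.64 (SE 0.03, adjusted p = 1.51e-20), or 1.56-fold. GSN (chromosome 9, 121207794 to 121332843), which encodes the calcium-activated severing protein gelsolin, had 72.4, 55.6 and 60.9 CPM in Yes T348I, against 105, 98.1 and 108 CPM in Yes WT. Its groups did not overlap either, and the log2 fold change was -0.71 (SE 0.05, adjusted p = 1.72e-14). Both changes passed the 1.2-fold minimum, and both held in all 15 alternatives.

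Cofilins and destrin bind and sever ageing filaments, and they are switched off when LIM kinases phosphorylate a serine near the start of the protein and on again when slingshot phosphatases remove it. The first 60 coding bases of the 3 genes are shown because that regulatory serine lies at the third codon of each, which is in capitals. The sequences are spliced coding sequence from the GENCODE 29 transcripts, on GRCh38 chr11:65856186-65858099 (minus strand), chr14:34713505-34714540 (minus strand) and chr20:17570209-17600794 (plus strand).
CFL1: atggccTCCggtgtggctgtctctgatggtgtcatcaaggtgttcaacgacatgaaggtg
CFL2: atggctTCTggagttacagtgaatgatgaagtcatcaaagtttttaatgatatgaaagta
DSTN: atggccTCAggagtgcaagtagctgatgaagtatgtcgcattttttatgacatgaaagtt
The codon differs between the 3 genes in its last base and encodes serine in each. Over the whole coding sequence, CFL1 and CFL2 share 351 of 501 bases (70.1%).

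CFL2, the cofilin known from muscle, and CFL1, the common non-muscle form, both rose. CFL2 had 144, 155 and 155 CPM in Yes T348I, against 113, 118 and 116 CPM in Yes WT, with no overlap and a log2 change of 0.39 (SE 0.04, adjusted p = 1.65e-11). CFL1 rose by 0.19 (SE 0.03, adjusted p = 1.97e-06), and DSTN, with a log2 fold change of 0.06, did not pass (adjusted p = 0.147). Per kilobase of exon, CFL2 was 6.08% ± 0.38 of the 3 genes in Yes T348I and 5.06% ± 0.03 in Yes WT, while DSTN was 53.4% ± 0.17 in Yes T348I and 56.2% ± 0.52 in Yes WT (SD, n = 3 each). CFL1 and DSTN have 8 and 4 pseudogenes named after them in the annotation, and reads that map to several places were not counted.

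Among the members, the enzymes that act on that serine gave mostly small and unsteady changes. Of 4 other genes of cofilin control in the second list described below, 2 were lower past the 1.2-fold minimum. SSH1 (chromosome 12, 108778192 to 108857590), a slingshot phosphatase, had 63.2, 60.4 and 69.2 CPM in Yes T348I, against 69.6, 72.5 and 68.7 CPM in Yes WT. The groups overlapped through the third Yes T348I library, and the log2 fold change was -0.13 (SE 0.05, adjusted p = 0.019). SSH2 (chromosome 17, 29625938 to 29930276), its paralogue, moved the other way, with 44.9, 46.4 and 45.4 CPM in Yes T348I, against 39.8, 43.6 and 40.7 CPM in Yes WT. Its groups did not overlap, and the log2 fold change was 0.14 (SE 0.05, adjusted p = 0.0234). Each of these opposite calls passed in only 10 of the 15 alternatives. SSH1 was lost without Yes T348I replicate 1 (adjusted p = 0.0644) or 2 (0.122) and without Yes WT replicate 2 (0.0983), and SSH2 without Yes WT replicate 1 (0.128) or 3 (0.0761). LIMK2, a LIM kinase, rose by 0.35 (SE 0.11, adjusted p = 0.00603) at a low level of 10.6 ± 0.45 CPM in Yes T348I and 8.35 ± 1.46 CPM in Yes WT, a call that was lost without Yes WT replicate 1 (adjusted p = 0.0648). LIMK1, the more abundant kinase per kilobase, did not pass (0.08, adjusted p = 0.177).

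Profilins, which hand monomers to growing ends, rose, while the thymosin TMSB4X, which holds monomers back, fell. PFN1 (chromosome 17, 4945652 to 4949061), the main profilin, had 979.9, 934 and 961 CPM in Yes T348I, against 748, 834 and 776 CPM in Yes WT. The lowest Yes T348I library was above the highest Yes WT library, and the log2 fold change was 0.29 (SE 0.03, adjusted p = 3.23e-09). TMSB4X (chromosome X, 12975108 to 12977227) had 1918, 1781 and 1865 CPM in Yes T348I, against 2093, 2106 and 2149 CPM in Yes WT. The order was the reverse of that for PFN1, with no overlap and a log2 change of -0.19 (SE 0.03, adjusted p = 7.75e-06). PFN2 rose by 0.20 (SE 0.04, adjusted p = 8.39e-06), and TMSB10, with a log2 fold change of -0.03, overlapped between groups and did not pass (adjusted p = 0.519). None of the 4 passed the 1.2-fold minimum, apart from PFN1 without Yes WT replicate 2 (adjusted p = 0.0497). Their summed level was 3792 ± 108 CPM in Yes T348I and 3877 ± 83.7 CPM in Yes WT (SD, n = 3 each), a ratio of 0.978. In the annotation, 10 pseudogenes carry the name of PFN1 and 6 that of TMSB4X.

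The full coding sequences of the thymosins are shown because these paralogues, of one length, gave different results: TMSB4X fell and TMSB10 did not pass. They are spliced from the GENCODE 29 transcripts on GRCh38 chrX:12976262-12976811 and chr2:84906018-84906423, both on the plus strand. Capitals mark the 37 of 135 positions at which the sequences differ.
TMSB4X: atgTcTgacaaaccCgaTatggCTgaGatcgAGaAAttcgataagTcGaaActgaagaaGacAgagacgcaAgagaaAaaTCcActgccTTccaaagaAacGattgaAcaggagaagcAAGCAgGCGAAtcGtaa
TMSB10: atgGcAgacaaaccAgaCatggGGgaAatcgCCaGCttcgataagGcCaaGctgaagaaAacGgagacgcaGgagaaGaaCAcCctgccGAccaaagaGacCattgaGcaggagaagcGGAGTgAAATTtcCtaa
The other 98 positions (72.6%) are the same. Per kilobase of exon, TMSB10 made up 60.7% ± 0.46 of the pair in Yes T348I and 57.97% ± 0.90 in Yes WT (SD, n = 3 each). The difference of this share between groups was not tested.

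**Figure D3:**
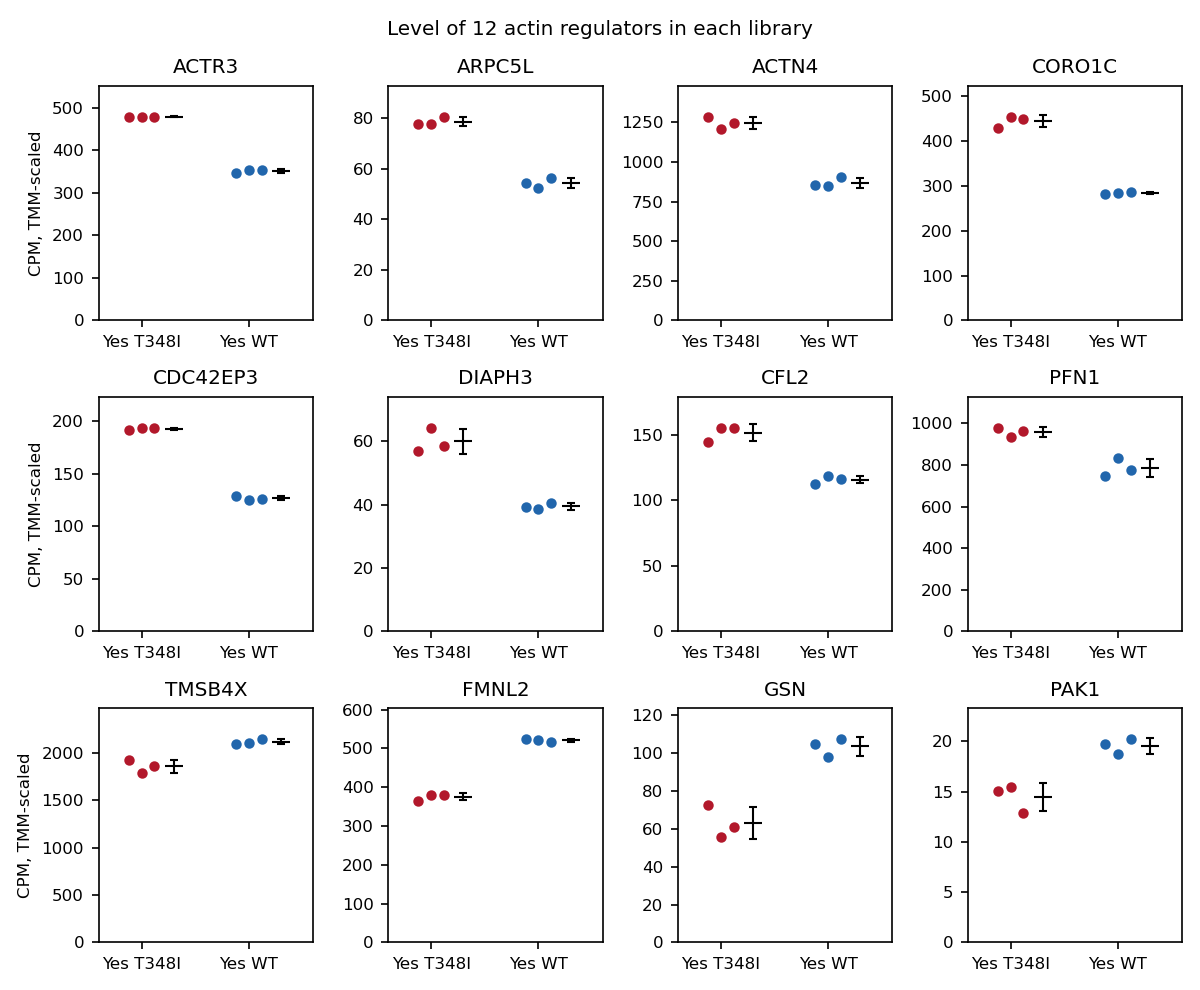
Level in CPM (TMM-scaled, y axis from 0) of 12 actin regulators in each Yes T348I and Yes WT library, with the mean and SD of each group (n = 3). ACTR3, ARPC5L, ACTN4, CORO1C, CDC42EP3, DIAPH3, CFL2 and PFN1 were higher in Yes T348I in every library, and TMSB4X, FMNL2, GSN and PAK1 were lower in every library.

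Genes of bundling, crosslinking and elongation rose in 5 of 7 cases (71.4%, beside 28.0% of all genes) and none fell (beside 27.3%). Their median log2 fold change was 0.25. ACTN4 (chromosome 19, 38647649 to 38731583), the alpha-actinin that crosslinks filaments in stress fibres and at the leading edge, had 1286, 1209.7 and 1247 CPM in Yes T348I, against 855, 847 and 902 CPM in Yes WT. The groups were far apart, and the log2 fold change was 0.52 (SE 0.03, adjusted p = 5.32e-17). PLS3 (chromosome X, 115561174 to 115650861), the plastin of non-blood cells that packs filaments into tight bundles, had 392, 377 and 379 CPM in Yes T348I, against 328, 318 and 322 CPM in Yes WT. No values overlapped, and the log2 fold change was 0.25 (SE 0.03, adjusted p = 1.06e-08). FLNC, a filamin that crosslinks filaments into networks and is best known from muscle, rose by 0.42 (SE 0.06, adjusted p = 1.88e-08). Of the Ena/VASP proteins, which keep capping protein off growing ends, VASP rose by 0.30 (SE 0.04), passing the 1.2-fold minimum only without Yes T348I replicate 2 (adjusted p = 0.0332), and ENAH by 0.19 (SE 0.03), and EVL did not pass (-0.01, adjusted p = 0.832).

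FSCN1, which encodes the filopodial bundler fascin, differed from the other bundlers. Its mean was 362 ± 24.7 CPM in Yes T348I and 381 ± 14.9 CPM in Yes WT (SD, n = 3 each), the groups overlapped, and a log2 fold change of -0.07 did not pass (adjusted p = 0.0863). It passed as lower when libraries were scaled by upper quartile (adjusted p = 0.00749) or by library size (0.017), and without Yes T348I replicate 1 (0.00161). The summed level of this role was 2589 ± 73.7 CPM in Yes T348I and 2083 ± 63.3 CPM in Yes WT, a ratio of 1.24, with ACTN4 the largest part of it.

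Of the 5 genes of ROCK, PAK and CDC42 signalling, 4 rose (80%) and 1 fell (20%), beside 28.0% and 27.3% of all genes. CDC42EP3 (chromosome 2, 37641882 to 37738468), an effector that binds active CDC42 and septins, had 192, 194 and 193 CPM in Yes T348I, against 129, 125 and 126 CPM in Yes WT. Values within each group nearly coincided, and the log2 fold change was 0.61 (SE 0.04, adjusted p = 1.90e-18), or 1.52-fold. ROCK2 (chromosome 2, 11179761 to 11348330), a GTPase-activated kinase upstream of LIM kinases and of myosin light chain, had 123, 136 and 123 CPM in Yes T348I, against 109, 105 and 111 CPM in Yes WT. All 3 Yes T348I libraries were higher, and the log2 fold change was 0.24 (SE 0.04, adjusted p = 4.16e-06). ROCK1 passed narrowly at 0.11 (SE 0.04, adjusted p = 0.0267), with overlapping groups, and in 9 of the 15 alternatives. The call was lost without Yes T348I replicate 2 (adjusted p = 0.119) and without Yes WT replicate 2 (0.213) or 3 (0.0596).

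PAK1 and PAK2 are p21-activated kinases, which CDC42 and RAC1 switch on and which in turn act on LIM kinases. This pair moved in opposite directions, and other genes of the family belong to the second list described below. PAK1 (chromosome 11, 77321707 to 77474635) had 15.1, 15.4 and 12.8 CPM in Yes T348I, against 19.7, 18.7 and 20.3 CPM in Yes WT. Every Yes T348I library was lower, and the log2 fold change was -0.43 (SE 0.08, adjusted p = 1.50e-05). PAK2 (chromosome 3, 196739857 to 196832647) had 193, 196 and 194 CPM in Yes T348I, against 171, 174 and 177 CPM in Yes WT. Every Yes T348I library was higher, and the log2 fold change was 0.16 (SE 0.03, adjusted p = 1.26e-04). PAK2 was the main kinase of the pair, at 93.1% ± 0.62 per kilobase in Yes T348I and 89.96% ± 0.36 in Yes WT (SD, n = 3 each). Both calls held in all 15 alternatives, and PAK1 passed the 1.2-fold minimum in 9 of 13. It did not without Yes T348I replicate 3 (adjusted p = 0.1998) or without Yes WT replicate 1 (0.0587) or 3 (0.0875).

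Per kilobase of exon, the members spanned over 3 orders of magnitude in both groups. Of those tested, the thymosins stood highest, TMSB10 at 1681 CPM per kilobase in Yes T348I and 1713 in Yes WT, and TMSB4X at 1088 in Yes T348I and 1241 in Yes WT. Next came PFN1 at 482 in Yes T348I and 396 in Yes WT, then ACTN4 at 205 in Yes T348I and 142 in Yes WT, which changed places with DSTN, at 186 in Yes T348I and 179 in Yes WT. The lowest were ARPC1B, FMNL3 and LIMK2, all under 2 CPM per kilobase in both groups. ARPC1B shares 32.4% of its exon bases with a read-through gene, and shared reads were left out, so its level may be understated. Exon length here is that of all annotated transcripts merged, so a gene with long, rare isoforms has its level per kilobase understated. All 57 together held 14270.5 ± 154 CPM in Yes T348I and 13005 ± 139 CPM in Yes WT (SD, n = 3 each), a ratio of 1.10.

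**Figure D4:**
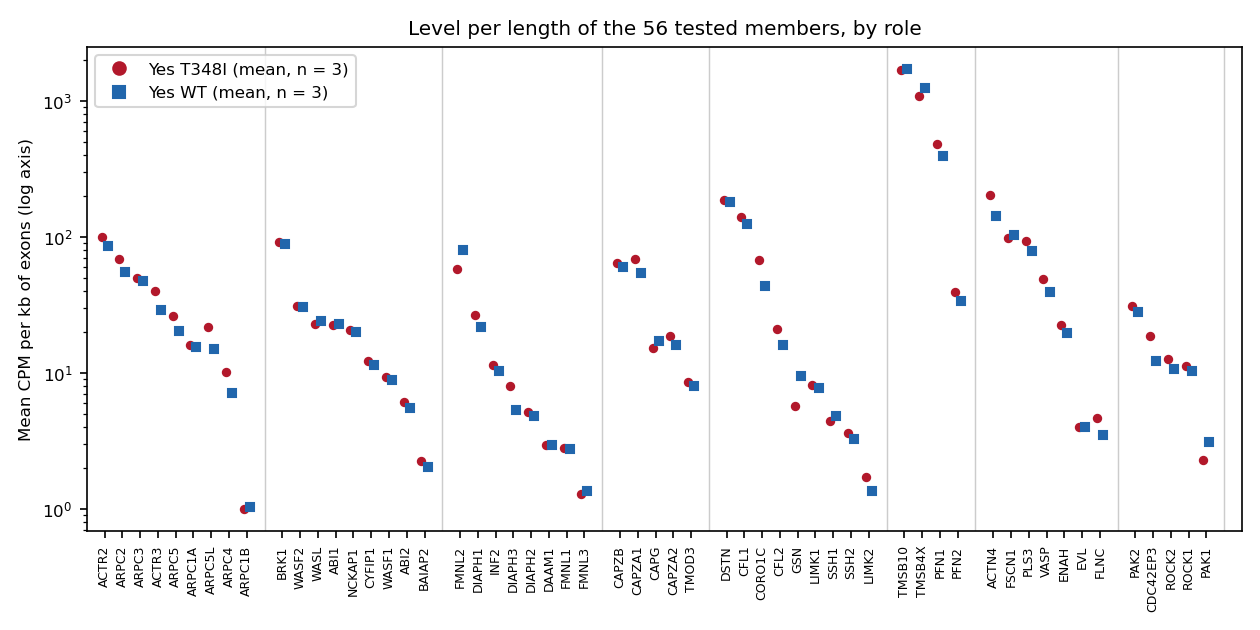
Mean CPM per kilobase of merged exons (log axis) of the 56 tested actin regulators, in Yes T348I (circles, left) and Yes WT (squares, right), n = 3 each, with roles divided by vertical lines. The thymosins TMSB10 and TMSB4X stand highest, at 1681 and 1088 CPM per kilobase in Yes T348I and 1713 and 1241 in Yes WT. ARPC1B stands lowest, with reads it shares with a read-through gene left out.

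The promoters of the members were searched for sites of factors that are known to act on cytoskeletal genes: the CArG box of SRF, GGAATG of TEAD factors and TGANTCA of AP-1. RefSeq windows on GRCh38.p14, from 250 bases before to 50 after each listed start, were at hand for 53 of the 57 members (89 windows, and not ARPC1B, WASF2, FSCN1 or PFN2), and both strands were read. A CArG box was found in 1 of the 89 windows (1.12%), that of ROCK2, beside 1.29% of 35116 windows of all genes. GGAATG was found in 7 of 89 (7.87%), beside 14.03% of all windows, and TGANTCA in 6 of 89 (6.74%), beside 7.71%. Counted by gene, the order for TGANTCA was reversed, with 6 of 53 members (11.3%) beside 9.37% of 27305 genes. The CArG box share by gene was also above that of all genes, resting on ROCK2 alone. GGAATG stayed below, at 13.2% of members beside 16.7% of genes. None of these differences was tested. A match describes letters in this window only and is no evidence of binding. CAPG, which fell, also holds TGANTCA and is not shown. Windows of 60 bases are shown for 4 members that rose, with the match in capitals: ROCK2 holds the only CArG box (chr2:11345476-11345535, minus strand), FLNC holds GGAATG read on the other strand (chr7:128830276-128830335, plus strand), and ACTN4 (chr19:38647399-38647458, plus strand) and INF2 (chr14:104681031-104681090, plus strand) hold TGANTCA.
ROCK2: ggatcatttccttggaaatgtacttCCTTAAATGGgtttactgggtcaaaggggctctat
FLNC: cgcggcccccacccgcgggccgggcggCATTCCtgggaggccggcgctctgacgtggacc
ACTN4: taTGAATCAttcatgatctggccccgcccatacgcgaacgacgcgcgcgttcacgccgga
INF2: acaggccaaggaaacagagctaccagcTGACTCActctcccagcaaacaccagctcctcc

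A second list held 76 other actin regulators, of which 63 were tested: 23 were higher (36.5%), 16 lower (25.4%) and 24 did not pass, with a median log2 fold change of 0.08. Past the 1.2-fold minimum, 9 were higher and 9 lower (14.3% each), beside 9.47% higher and 12.5% lower among all genes. Without that minimum, 28.0% of all genes were higher and 27.3% lower. The roles of this list differed in their counts. Of 16 tested activators, inhibitors and other genes of the ARP2/3 complex, 3 were higher and 5 lower, 2 of the latter past the 1.2-fold minimum. Of 4 genes of cofilin control none was higher and 2 were lower, both past that minimum. Of 12 capping and severing genes, 6 were higher and 3 lower, and of 16 GTPases and kinases 7 were higher and 4 lower. Other nucleators (5 tested) and coronins (5 tested) each had 1 higher and 1 lower. Of the bundlers and crosslinkers, all 5 tested rose past the 1.2-fold minimum. They included ACTN1 (log2 fold change 0.51), the paralogue of ACTN4, FLNA (0.41), a paralogue of FLNC, PLS1, the paralogue of PLS3, and LASP1 (0.38), which binds actin at focal adhesions. FLNA, which crosslinks filaments into networks, had 4268, 3903 and 4165 CPM in Yes T348I, against 3114, 2969 and 3193 CPM in Yes WT, with no overlap (SE 0.04, adjusted p = 1.13e-12). The lowest adjusted p of the list belonged to SVIL, which encodes supervillin, a gelsolin-related protein that binds actin and myosin at the membrane. SVIL had 246, 250.3 and 239 CPM in Yes T348I, against 494, 486 and 509 CPM in Yes WT, a log2 change of -1.02 (SE 0.03, adjusted p = 3.80e-27). WDR1, which helps cofilin take filaments apart, rose by 0.40 (adjusted p = 1.48e-14).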

How the data were processed

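RNA of 6 SNU-449 libraries, 3 Yes T348I and 3 Yes WT, was sequenced after a stranded polyA kit, per the labels' protocols. For each library the authors deposited raw gene counts, in unstranded, forward and reverse columns. Tools in the submitters' processing notes, named without roles, are STAR 2.5.1b, Trimmomatic 0.35 and CASAVA 1.8.2, with GRCh38 as the build; no annotation release is named there. The reverse column was used, since the forward total was only 6.13% to 6.59% of it. Reads on no gene (6.37% to 6.86% in Yes T348I, 7.40% to 7.87% in Yes WT) and reads fitting several genes (3.11% to 3.15%) stayed out of library sizes and tests. Totals of 14360137 to 19608763 counts limit the precision of genes of a few CPM.

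Symbols came from a separate list of gene names, which gave a symbol for 57437 of 58219 identifiers. Positions and exon lengths came from GENCODE 29, which matched 57881 of the identifiers. In R 4.3.3, edgeR 4.0.16 kept genes by filterByExpr (minimum count 10), scaled by TMM and ran a quasi-likelihood F-test of Yes T348I against Yes WT without covariates. P-values were adjusted by Benjamini-Hochberg over all 14723 genes, with a threshold of 0.05, and glmTreat tested against a minimum change of 1.2-fold. The script was tested on simulated data. Yes T348I is the numerator of each fold change, and SE is that of the log2 fold change. CPM are TMM-scaled and compared between genes only per kilobase of exon.

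The members, lists and roles were chosen with earlier results of these data known. Values per library are given for YES1, for members with an adjusted p under 0.05 and a change of at least 1.4-fold, for the 2 of each role with the lowest adjusted p, and for paralogues called in opposite directions. CFL2, FLNA and SVIL fall outside this rule for values per library and were added after their values were seen. Of the other actin regulators, the rule names the 6 with the lowest adjusted p, 1 of which is not reported here, and PLS1 was added after its values were seen. The 15 alternatives covered scaling, filters, the unstranded counts, DESeq2 1.42.0, limma-voom (limma 3.58.1), the replicate number as a block, and leaving out each library.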

Additional observations from a re-analysis of the deposited data

How the results depend on the processing

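Across 15 alternatives, no value changed direction past the threshold. The members higher numbered 27 to 32 and those lower 4 to 6 when each library was left out (main 31 and 6), and 26 to 35 and 4 to 8 otherwise. With upper quartile scaling or library size only, 26 members were higher and 8 lower, and 3565 genes of all were higher and 4626 lower under upper quartile scaling, beside 4123 and 4024 with TMM. WASL and FSCN1 were then lower, so that 1 ARP2/3 activator and 1 bundler were lower (main 0 each), only 1 activator was higher (main 3), and the members' median was 0.082 under upper quartile scaling and 0.085 under library size. These scalings moved the median of all genes by at most 0.04. Without the low-count filter, no capping gene and 1 severing gene were lower (0 and 1, main 1 and 2), and the median was 0.16. DESeq2's Wald test also left 1 severing gene lower. The cause of these shifts was not tested. Leaving out each library in turn gave 1 to 3 activators higher, 3 to 5 severing genes higher, 0 to 1 capping genes lower, 1 to 2 severing genes lower, 0 to 1 bundlers lower and a median of 0.11 to 0.15. CYFIP1, SSH1 and SSH2 lost their calls in 4, 5 and 5 alternatives. Same-numbered libraries did not deviate together (correlations of -0.03 to 0.001), which does not settle whether they were prepared together. A fit blocked by replicate number gave 30 members higher and 6 lower (BAIAP2 lost its call, adjusted p = 0.0533), with 4054 genes of all higher and 3936 lower. Genes of low count, such as ARPC1B (54 to 74 counts per library) and LIMK2 (114 to 208), have limited precision. For ARPC1B, reads shared with a read-through gene were also left out.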
